A study of Homo sapiens with 4 samples.

Results

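The amino acid transporter genes of the SLC1, SLC6, SLC7, SLC36, SLC38 and SLC43 families were followed in the human myeloma cell line MM.1S after inhibition of the NEDD8-activating enzyme. Members were the genes whose symbol in the array's annotation is 1 of these family names followed by a number, without the cystine carrier SLC7A11, and whose probe sets name that gene alone. There were 53 such genes among 19775 genes on the array. SLC36A2, SLC36A3 and SLC38A8 were not analysed here. The 4 groups were cells given the vehicle DMSO, whose label states no culture time, and cells given 250 nM MLN4924 for 8 h, 16 h or 24 h. MLN4924 blocks the first step of neddylation, which cullin-RING ubiquitin ligases need to work. Total RNA of each group was hybridised to 1 Affymetrix array, so no test between groups was possible, every difference is that of 1 array from another, and the number of arrays limits the precision.

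Amino acid transporters set what a cell can take in and what it must make. Sodium-coupled carriers such as those of SLC38 load the cell with small neutral amino acids, and the exchangers of SLC7 then trade these for leucine and other essential amino acids. The SLC7 light chains work only when bound to a heavy chain, SLC3A1 or SLC3A2 (CD98), whereas the cationic transporters of the same family work alone. When amino acids run short, the kinase GCN2 (EIF2AK4) phosphorylates the initiation factor eIF2, the transcription factor ATF4 is translated, and ATF4 raises the transcription of several transporters together with enzymes such as asparagine synthetase (ASNS). Plasma cells secrete large amounts of immunoglobulin and depend on this supply.

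The upstream sequences of 3 members, SLC38A2, SLC7A1 and SLC7A5, are shown first, because these genes are known to respond to amino acid or growth signals. SLC38A2 and SLC7A1 were among the members furthest from the control, and SLC7A5 was added for its step between 8 h and 16 h. SLC7A7, the furthest of all, has 3 listed starts and SLC6A6 no window in the table, so neither is shown. They are the 250 bases before the gene's start, from RefSeq on GRCh38.p14, each written along its gene, which in all 3 cases lies on the minus strand. Capitals mark a CACGTG E-box, the core motif bound by MYC and related factors.
SLC38A2 (chr12:46372774-46373023, minus strand): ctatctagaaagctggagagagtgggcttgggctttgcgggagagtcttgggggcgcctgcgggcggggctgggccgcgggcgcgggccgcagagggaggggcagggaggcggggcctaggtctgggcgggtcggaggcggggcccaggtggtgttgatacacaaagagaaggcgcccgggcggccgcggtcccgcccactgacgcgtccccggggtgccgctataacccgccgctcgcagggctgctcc
SLC7A1 (chr13:29595689-29595938, minus strand): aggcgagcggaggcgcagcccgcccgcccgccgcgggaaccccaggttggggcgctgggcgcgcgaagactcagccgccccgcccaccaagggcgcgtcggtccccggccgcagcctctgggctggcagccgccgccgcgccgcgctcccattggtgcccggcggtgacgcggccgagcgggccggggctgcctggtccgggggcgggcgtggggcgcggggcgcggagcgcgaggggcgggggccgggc
SLC7A5 (chr16:87869508-87869757, minus strand): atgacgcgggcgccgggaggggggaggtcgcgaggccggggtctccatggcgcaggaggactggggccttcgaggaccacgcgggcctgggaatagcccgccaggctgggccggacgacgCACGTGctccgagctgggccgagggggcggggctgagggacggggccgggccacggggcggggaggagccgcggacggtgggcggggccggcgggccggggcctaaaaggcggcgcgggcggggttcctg

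The motif searched for ATF4 was TGATGNAA, the letters of the composite element that C/EBP and ATF proteins bind, on both strands of windows that run from 250 bases before the start to 50 after it. In SLC7A1 it lies 8 to 15 bases after the start, and in ASNS, the classic gene with this element, 68 to 61 bases before it. Both sites are printed with the 8 matching letters in capitals, and the match is the same, TGATGAAA, in each.
SLC7A1 (chr13:29595663-29595692, minus strand): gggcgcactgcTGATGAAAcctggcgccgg
ASNS (chr7:97872458-97872487, minus strand): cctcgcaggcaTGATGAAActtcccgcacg
A match is a description of letters and not evidence of binding. Windows were found for 41 of the 53 members and for 25 of the 30 measured ones. Among those 25, 12 have more than 1 listed start, with 44 windows in all. Of the 25, 5 (SLC1A3, SLC1A4, SLC1A5, SLC38A1 and SLC7A1) held TGATGNAA in at least 1 window, against 4.46% of 27305 genes with a window (3.62% of 35116 windows). The E-box, CACGTG, which reads the same on both strands, was in at least 1 window of 9 of the 25, among them SLC7A5, SLC1A5 and SLC7A7, against 8.77% of genes (7.26% of windows). Genes with more listed starts have more chances of a match, and this was not adjusted for. Neither motif was in the window of SLC38A2.

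The arrays had median intensities between 92.2 and 95.4. All 13 markers of plasma cells and of this line, among them SDC1, IRF4 and TNFRSF17, were measured on them, with a summed intensity between 99138 and 112735. Of 15 markers of fibroblasts, T and NK cells and myeloid cells, 3 (COL1A1, CD3E and CD3G) passed the filter described next, and the highest intensity of any was 244. The summed intensity of the 5 markers was 496 to 514 for fibroblasts, 343 to 429 for T and NK cells and 237 to 265 for myeloid cells, whose markers were all below the filter. A gene was represented by its probe set with the highest mean and counted as measured when its geometric mean intensity over the 4 arrays was above 93.9, the median of all probe sets. Of the 53 members, 30 were measured, and 29 of those were above the median of every array. The filter uses the mean over all 4 arrays, so a gene high on only 1 array could still fall below it.

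The 23 members below the filter were largely genes known from other tissues, but some that passed it, such as SLC6A2 and SLC6A3, are too. Those below it were SLC1A1 and SLC1A6 among the glutamate carriers, 10 SLC6 genes, 7 SLC7 genes and 4 SLC38 genes. The SLC6 genes were SLC6A4 (serotonin), SLC6A5 (glycine), SLC6A8 (creatine), SLC6A11, SLC6A12 and SLC6A13 (GABA and betaine), SLC6A14, SLC6A15, SLC6A16 and SLC6A18. Of SLC7 they were SLC7A2, SLC7A3, SLC7A4, SLC7A9, SLC7A10, SLC7A13 and SLC7A14, and of SLC38, SLC38A3, SLC38A4, SLC38A6 and SLC38A11. No intensity of the probe set chosen for any of them was above 104 on any array, and 7 stood at the floor of 48.4 or under it on all 4. SLC6A8 had 3 further probe sets that also name its pseudogene copies and were left out by the rule. The brightest of these read 328, 325, 337 and 352 on the control, 8 h, 16 h and 24 h arrays, and it cannot be assigned to the gene or to its copies.

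No measured transporter gene was 2-fold away from the control at any time. At 8 h none of the 30 was at least 1.5-fold higher or lower either, where 0.731% of the 12446 measured genes on the array were higher and 1.12% lower (0.249% at 2-fold either way). At 16 h 1 member, SLC7A7, was at least 1.5-fold higher, against 2.24% of all measured genes, and none was lower by that fold, against 2.73% (0.675% at 2-fold either way). At 24 h 2 members, SLC7A7 and SLC38A2, were at least 1.5-fold higher, against 2.85%, and none was lower, against 2.31% (0.707% at 2-fold either way). With 30 genes each of these shares comes to less than 1 gene, and those at 2-fold to far less. The counts, with the lack of any 2-fold member, thus stand near the background. RNA was measured in bulk, so fewer cells with a transcript and less of it per cell cannot be told apart. The median of the 30 log2 differences was 0.047, -0.0077 and -0.030 at 8, 16 and 24 h, beside 0.0071, 0.026 and 0.016 over all measured genes. The median size of the difference, regardless of sign, was 0.14, 0.18 and 0.14 for the members and 0.12, 0.16 and 0.17 for all genes. A stand-in for technical spread was the pooled SD between probe sets of the same gene, taken over 5719 genes with at least 2 measured probe sets, and it was 0.16, 0.19 and 0.18 (log2). It compares probe sets on the same arrays. The spread between cultures and errors shared by the probe sets of a gene on an array are not included. At all 3 times 18 of the 30 members stayed within 0.25 of the control. The share of all measured genes within that limit was not counted, so this is not a trait of the transporters.

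**Figure D1:**
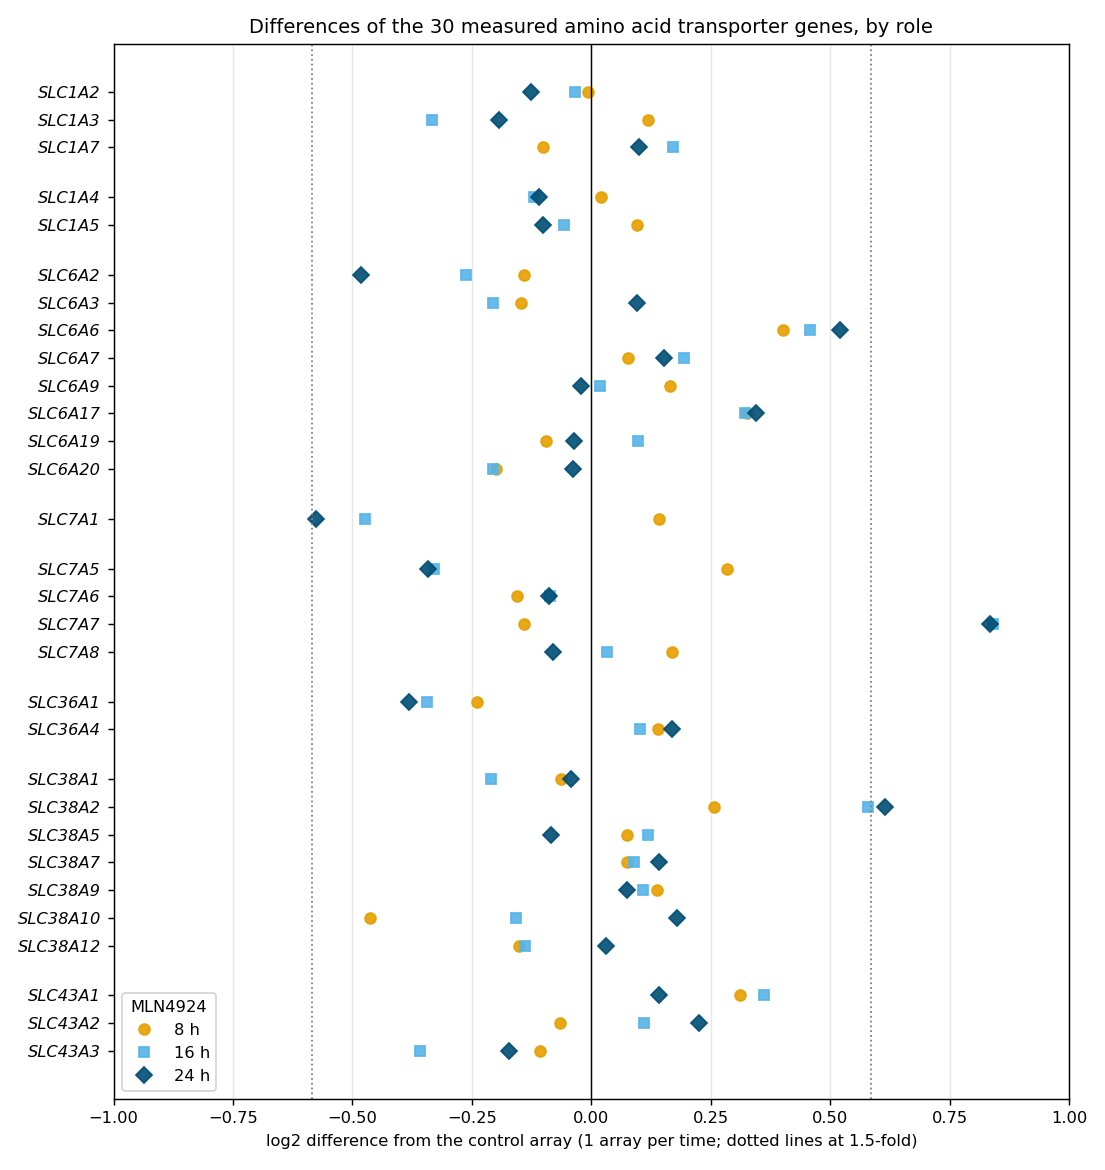
Log2 difference of each of the 30 measured transporter genes from the control array at 8 h (circles), 16 h (squares) and 24 h (diamonds), grouped by role from SLC1 at the top to SLC43 at the bottom; there is 1 array per time and so no error bar. Most genes lie within the dotted lines at 1.5-fold, with SLC7A7 (0.84 and 0.83) and SLC38A2 (0.61 at 24 h) beyond them on the right and SLC7A1 (-0.58 at 24 h) just inside on the left.

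The sodium-coupled neutral transporters of SLC38 held a gene that was higher on all 3 treated arrays in each of its probe sets. SLC38A2 (SNAT2), which takes up alanine, glutamine and other small neutral amino acids and is induced when they are scarce, had an intensity of 3636 without the inhibitor, and of 4345, 5429 and 5566 after 8, 16 and 24 h of it. Each treated array was thus above the control and above the earlier one. The differences were 0.26, 0.58 and 0.61 (log2), or 1.19-, 1.49- and 1.53-fold, so the 16 h value fell just short of 1.5-fold and the 24 h value just passed it. With each array divided by its median the 24 h difference was 0.57, short of 1.5-fold. Its other 2 probe sets gave 0.26, 0.63 and 0.66, and 0.32, 0.65 and 0.71. All 3 probe sets have names ending in _x_at or _s_at, which mark probes that may match more than 1 transcript. They are not independent measurements of the gene.

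SLC38A1 (SNAT1), a carrier of similar substrates, is the neighbour of SLC38A2 on chromosome 12 among protein-coding genes and had no array above the control in the probe set used. It read 3766, 3601, 3255 and 3656 on the control, 8 h, 16 h and 24 h arrays, with differences of -0.065, -0.21 and -0.043 (log2). Of its 3 other measured probe sets, the brightest had the same signs (-0.054, -0.24 and -0.081), and the dimmer ones gave -0.25, 0.037 and -0.12, and -0.017, 0.082 and 0.10. SLC38A5, which carries glutamine and serine, was within 0.12 of the control at each time. The lysosomal members also lay close to it in the probe sets used. SLC38A7, which releases glutamine from lysosomes, stood at 0.075, 0.089 and 0.14, and SLC38A9, which reports lysosomal arginine to mTORC1, at 0.14, 0.11 and 0.074. Their dimmer probe sets lay further off. The 3 of SLC38A7 ranged from -0.26 to 0.40, and the other of SLC38A9 stood at -0.26, -0.11 and 0.053. SLC38A10 read 1255, 909.8, 1124 and 1421 (-0.46, -0.16 and 0.18), the lowest difference of any member at 8 h. Its other 2 measured probe sets were below the control at all 3 times (-0.20, -0.31 and -0.37, and -0.23, -0.28 and -0.24), so the sign at 24 h depends on the probe set. SLC38A12 stood at -0.15, -0.14 and 0.030.

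SLC7A1 (CAT1), the main carrier of arginine and lysine into most cells and a gene with a TGATGNAA match, had the lowest differences of all members at 16 and 24 h. It read 1486 without the inhibitor, and 1639.8, 1070.1 and 997 after 8, 16 and 24 h of it. The 2 late arrays lay below both early ones. The differences were 0.14, -0.47 and -0.58 (log2), 1.39- and 1.49-fold lower at 16 and 24 h, and the step from 8 h to 16 h was -0.62, past 1.5-fold. With each array divided by its median the 24 h difference was -0.62 too, which is past 1.5-fold. Of its 3 other measured probe sets, 2 were also lower at 16 and 24 h (-0.39 and -0.41, and -0.40 and -0.34). The remaining probe set, the dimmest of the 4, had 138, 214, 163 and 171 and stood above the control at each time (0.63, 0.24 and 0.31), although it too was lower at 16 h than at 8 h. With the median over all 5 probe sets of the gene the differences were -0.088, -0.40 and -0.34.

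SLC7A5 (LAT1), the exchanger that brings in leucine and other large neutral amino acids, had the same order of arrays. It was not among the genes selected by their difference from the control, and it is described because its step between treated arrays was singled out after the values were seen. It read 2135, 2598, 1698 and 1683 on the control, 8 h, 16 h and 24 h arrays, or 0.28, -0.33 and -0.34 (log2). The 8 h array was the highest and the late arrays the lowest, and the step from 8 h to 16 h was -0.61. In that step SLC7A1 and SLC7A5 were the 2 members at least 1.5-fold lower, against 1.61% of all measured genes, and SLC7A7 the only member at least 1.5-fold higher, against 1.86%. The gene has 1 probe set with a single gene name, of the _s_at kind. Its heavy chain SLC3A2 had the same signs with smaller differences, at 1141, 1214, 1053 and 1032 (0.090, -0.12 and -0.14), within the technical spread. SLC3A1, the heavy chain of kidney and gut transporters, read between 102 and 126. MYC, the growth regulator known to act on SLC7A5 and SLC1A5, had 8664, 8902, 8875 and 8283 and lay within 0.065 of the control.

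SLC7A7 (y+LAT1), a light chain that exports arginine and lysine in exchange for neutral amino acids and sodium, had the largest difference of any member. Its intensities were 114 on the control array and 103 at 8 h, then 203 at both 16 and 24 h. The 2 late arrays were alike and above the 2 early ones. The differences were -0.14, 0.84 and 0.83 (log2), or 1.79-fold and 1.78-fold higher at the late times, and the step from 8 h to 16 h was 1.97-fold. The early values lie close to the medians of their arrays (92.2 and 95.1), no detection call came with the data, and the gene has 1 probe set. Whether the early values are above background was not tested.

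The other light chains differed little. SLC7A6 (y+LAT2), with the same function as SLC7A7, read 1367, 1227, 1288 and 1286 (-0.16, -0.086 and -0.088). SLC7A8 (LAT2), a carrier of neutral amino acids, stood at 0.17, 0.033 and -0.081, and its other measured probe set at -0.11, -0.21 and -0.070. Of the 5 measured SLC7 genes, then, SLC7A7 was higher at 16 h, SLC7A1 and SLC7A5 were lower, and SLC7A6 and SLC7A8 were within 0.17 of the control in the probe sets used.

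**Figure D2:**
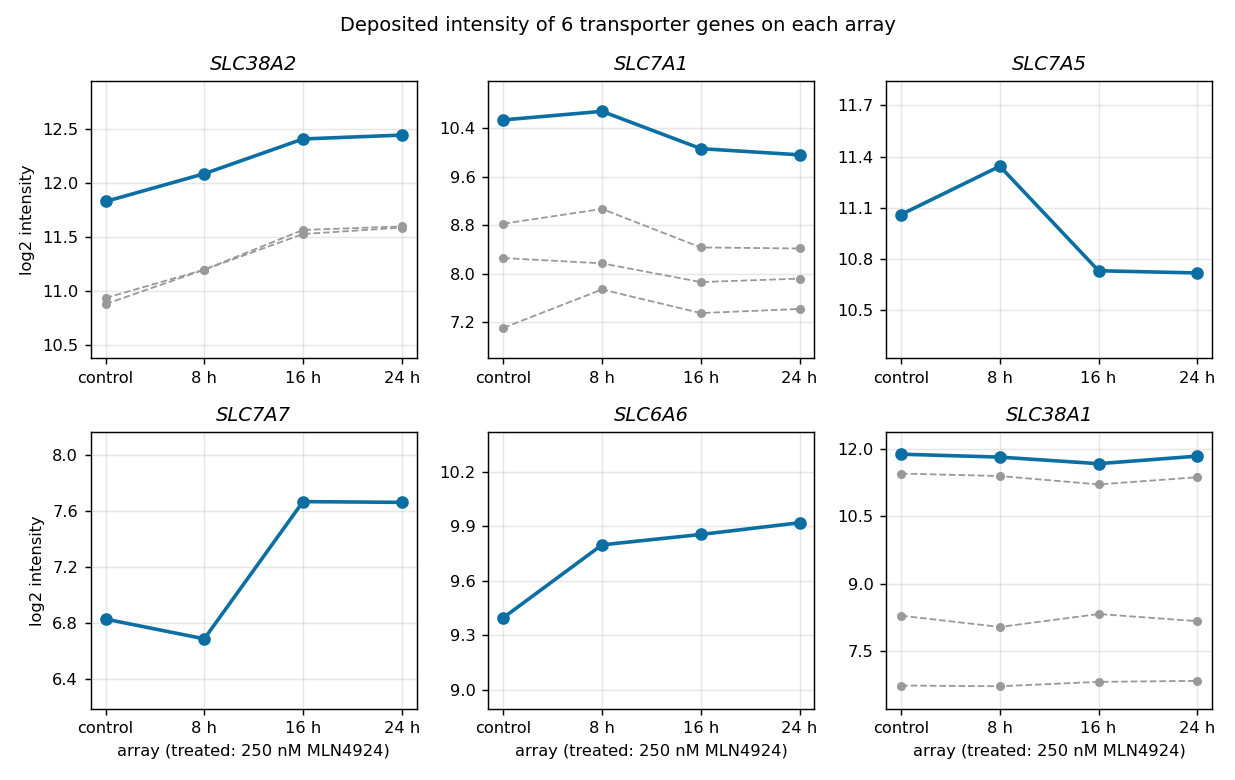
Log2 of the deposited intensity of SLC38A2, SLC7A1, SLC7A5, SLC7A7, SLC6A6 and SLC38A1 on the control array and after 8, 16 and 24 h of 250 nM MLN4924, with the probe set that stands for the gene as a blue line and other measured probe sets as dashed grey lines. There is 1 array per point, and each panel has its own range. SLC38A2 is higher at each later time in all 3 probe sets, SLC7A1 and SLC7A5 are lower at 16 h than at 8 h, SLC7A7 is higher, and SLC6A6 is above the control from 8 h on.

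Among the SLC6 carriers, which couple uptake to sodium and chloride, SLC6A6 differed most. It carries taurine and beta-alanine and responds to cell volume. Its intensities were 674, 889.9, 926 and 968 on the control, 8 h, 16 h and 24 h arrays, so that all 3 treated arrays lay above the control. The differences were 0.40, 0.46 and 0.52 (log2), the highest of any member at 8 h, and 1.44-fold at 24 h. The other 4 probe sets of the gene were below the filter, and the median over all 5 gave -0.040, -0.15 and 0.12, so the higher values rest on 1 probe set. SLC6A17, a carrier of neutral amino acids into synaptic vesicles, read 199 on the control array and between 248 and 252 on the treated ones (0.33, 0.32 and 0.34). Its other probe set, below the filter, had 0.10, -0.30 and -0.22, so these higher values also rest on 1 probe set. SLC6A2, the noradrenaline transporter, went the other way, with 177, 161, 148 and 127 (-0.14, -0.26 and -0.48). Its 7 other probe sets were below the filter. The brightest of these stood at 0.42, 0.073 and 0.33, so the lower values rest on 1 probe set. The glycine transporter SLC6A9 (0.16, 0.018 and -0.022) and the carriers SLC6A3 (dopamine), SLC6A7 (proline), SLC6A19 (neutral amino acids) and SLC6A20 (proline) lay between -0.21 and 0.19 at each time. SLC6A3, SLC6A7, SLC6A19 and SLC6A20 had intensities between 98.6 and 134, close to the array medians. Whether these are above background was not tested.

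The exchangers of SLC1 lay close to the control. SLC1A5 (ASCT2), through which many tumour cells take up glutamine, read 1776, 1898, 1707 and 1655 (0.096, -0.057 and -0.10), and SLC1A4 (ASCT1), for alanine, serine and cysteine, 5880.1, 5959.6, 5411 and 5449 (0.019, -0.12 and -0.11). Both were a little above the control at 8 h and a little below it later, by less than the technical spread. The other 4 measured probe sets of SLC1A4 ranged from -0.35 to 0.22. Among the glutamate carriers, SLC1A3 stood at 0.12, -0.33 and -0.19 at intensities between 92.2 and 126, SLC1A2 within 0.13 and SLC1A7 within 0.17 of the control.

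SLC36A1 (PAT1), which moves small amino acids out of lysosomes with protons, was lower on each treated array, with 238, 202, 188 and 183 (-0.24, -0.34 and -0.38). Its other probe set, at 149, 153, 164 and 135, did not share this (0.035, 0.14 and -0.14). SLC36A4 (PAT4) read 358, 394, 384 and 403 (0.14, 0.10 and 0.17). A second probe set of it stood at -0.11, -0.97 and -0.43, the largest disagreement between probe sets of any member at 16 h, when it read 83.7 against 164 on the control array. SLC43A1 (LAT3) and SLC43A2 (LAT4), which let large neutral amino acids pass without ions, stood at 0.31, 0.36 and 0.14 and at -0.065, 0.11 and 0.23. SLC43A3, a carrier of purine bases rather than amino acids, stood at -0.11, -0.36 and -0.17.

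Of the 30 members, 8 were above the control at all 3 times, 7 were below it at all 3 and 15 lay on both sides of it. The 3 differences of a gene share the control array, which favours the same sign at all times in any gene. At 8, 16 and 24 h taken singly 16, 15 and 14 members were above the control. Over all 12446 measured genes 6429, 6757 and 6548 were. Where a second measured probe set existed (12 members), all probe sets had the sign of the one used for 6 members at 8 h, 4 at 16 h and 5 at 24 h. Such agreement is that of small differences, most of them within the technical spread. Neither the sign kept over all 3 times nor this agreement was counted over all measured genes, so neither is a result about the members. Between 16 h and 24 h no member differed by 1.5-fold, where 0.739% of measured genes were that much higher and 0.0884% lower. The lowest step was -0.22 (SLC6A2) and the highest 0.34 (SLC38A10), and SLC7A5, SLC7A6 and SLC7A7 differed by -0.013, -0.0018 and -0.0053. All these comparisons share arrays, the control or the 16 h array among them, so they are not independent of each other.

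The genes around these transporters gave the following picture. The ATF4 targets of amino acid shortage were lower on balance, with 14 of 22 measured genes below the control at 8 h, 18 at 16 h and 19 at 24 h. Over all 12446 measured genes 6016, 5689 and 5897 were below it at those times. The medians were -0.054, -0.22 and -0.29 (log2), and ALDH1L2, a mitochondrial folate enzyme, was the only gene at least 2-fold lower, at 16 h and 24 h (-1.31 and -1.06). PSAT1, of serine synthesis, read 1022, 1009, 690.2 and 598 (-0.019, -0.57 and -0.77). ASNS, whose element is printed beside that of SLC7A1, read 1669.9, 1455, 1214 and 1142 (-0.20, -0.46 and -0.55), and WARS1, the tryptophan tRNA synthetase, stood at -0.37, -0.61 and -0.31. ATF4 itself read 5869, 5761, 4841 and 4835 (-0.027, -0.28 and -0.28). SLC7A1 and SLC7A5 had late values on the same side as this list, and SLC38A2, a known target of ATF4, on the opposite side. The other measured members with TGATGNAA were SLC1A3, SLC1A4, SLC1A5 and SLC38A1. At 16 and 24 h they stood at -0.33 and -0.19, -0.12 and -0.11, -0.057 and -0.10, and -0.21 and -0.043. Other probe sets of SLC1A4 and SLC38A1 had both signs. Of all 30 members 15 and 16 were below the control at those times. Whether ATF4 acted on any of these genes was not tested.

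Of the 10 genes around GCN2 and eIF2 phosphorylation, EIF2AK4, the kinase that senses uncharged tRNA, was 2-fold higher at 16 and 24 h (1.27 and 1.17), and no other gene of this list passed 1.5-fold. Of all measured genes 0.675% and 0.707% were 2-fold away either way at those times. EIF2AK4 read 499.9, 582, 1206 and 1126 on the control, 8 h, 16 h and 24 h arrays. A second probe set read 114, 134, 119 and 130 (0.24, 0.067 and 0.20), so the higher values rest on 1 of 2 probe sets. PPP1R15A, which directs removal of the phosphate from eIF2, stood at -0.023, 0.32 and 0.50, EIF2S1, the phosphorylated subunit, at -0.049, -0.36 and -0.39, and the kinase EIF2AK3 (PERK) at -0.080, 0.17 and 0.35.

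Among 30 measured genes that carry amino acid signals to mTORC1, SESN3, a sestrin, was the highest at each time, with 308, 477, 559.9 and 514 (0.63, 0.86 and 0.74). FNIP2, a partner of folliculin, was the lowest at each time, with 745, 458, 481 and 496 (-0.70, -0.63 and -0.58), and its other 2 probe sets gave values between -0.51 and -0.64. SESN1 stood at -0.26, 0.31 and 0.55, and NPRL3, of the complex that restrains mTORC1, at 0.010, -0.25 and -0.52, with other probe sets of both signs. The medians of the list were -0.034, 0.0063 and -0.023, near those of all genes.

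Of 25 amino acid and peptide carriers of other families 18 were measured. SLC7A11, the cystine carrier left out of the members, was the only 2-fold one, at 8 h, when 0.249% of all measured genes were 2-fold away. SLC7A11 read 153, 384, 166 and 217 (1.33, 0.11 and 0.50), high at 8 h and near the control at 16 h, and a second probe set gave 1.39, -0.035 and 0.70. The mitochondrial carriers SFXN2 (-0.30, -0.47 and -0.49), SFXN1 (-0.081, -0.36 and -0.48), which imports serine, and SLC25A13 (-0.20, -0.49 and -0.31), which exchanges aspartate for glutamate, were lower at the late times. Of the other probe sets of SFXN1, 1 lay within 0.11 of the control and 1 stood at -0.38, -0.79 and -0.58. Not all mitochondrial carriers of the list were lower. SLC25A15 stood at 0.21, 0.43 and 0.34, and SLC25A44 at 0.20, 0.31 and 0.41. Of the 16 measured enzymes that use glutamine, glutamate and related amino acids, ASL, which makes arginine, was the only gene past 1.5-fold, at 24 h (-0.23, -0.51 and -0.59). At that time 2.31% of all measured genes were at least 1.5-fold lower. BCKDK, the kinase that holds back breakdown of branched-chain amino acids, stood at 0.060, 0.41 and 0.48, and OAT, ornithine aminotransferase, at 0.17, 0.28 and 0.40.

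**Figure D3:**
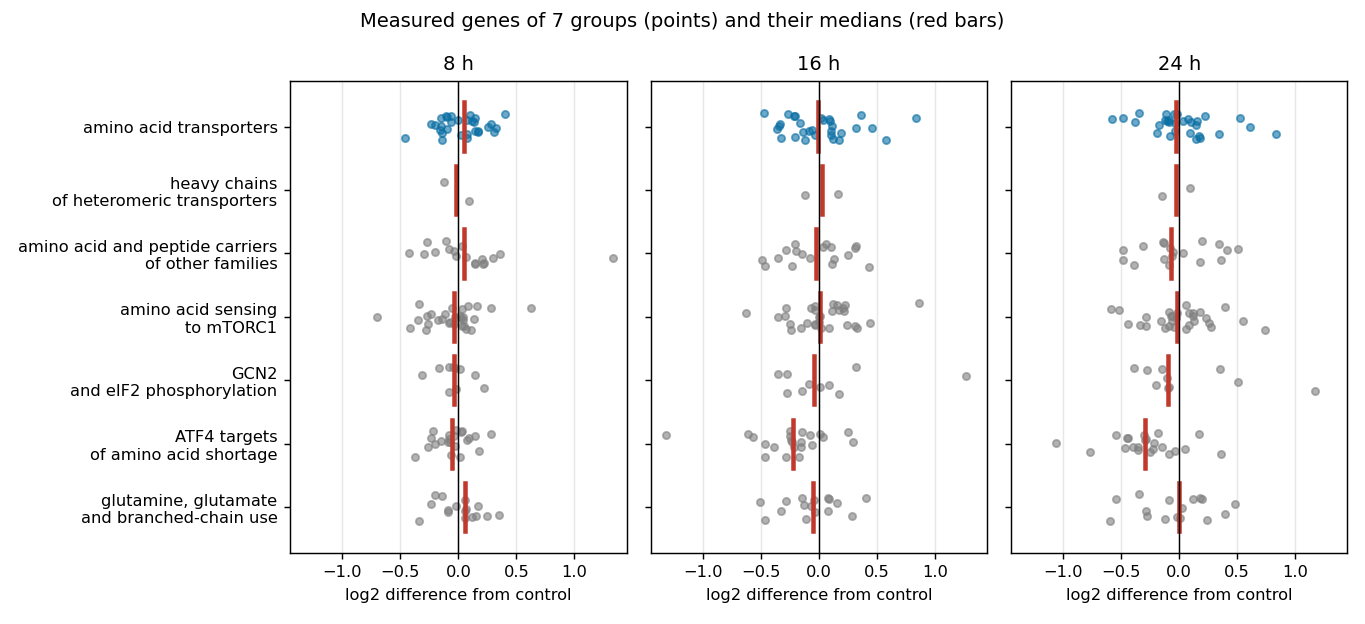
Log2 difference from the control array at 8, 16 and 24 h for the measured genes of the transporter families (blue, 30 genes) and of 6 groups of related genes (grey), each point a gene placed with random vertical offset and each red bar the median of its group. The transporter median stays near 0 (0.047, -0.0077 and -0.030) while that of the ATF4 targets lies at -0.22 and -0.29 at 16 and 24 h; the far points are SLC7A11 at 8 h and EIF2AK4 and ALDH1L2 later.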

How the data were processed

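Total RNA of MM.1S cells was hybridised to 54675-probe-set Affymetrix arrays, 1 per group, per the labels. The values are intensities on a linear scale as deposited by the authors, and how they were summarised and normalised is not given in the sources used here. Groups came from the sample labels. Of the probe sets, 41097 name 1 gene in the platform annotation, 1801 several, and 11777 are not listed; 41043 of the first matched the RefSeq table (GRCh38.p14) by Entrez identifier. Intensities under 48.4, the 25th percentile, were set to it before log2 was taken. Each gene was represented by its brightest single-gene probe set, by mean, and 12446 of 19775 genes passed the filter. No test was run, for lack of replicates; genes past 2-fold and 1.5-fold were counted. The array medians differed by at most 0.048 (log2), and no normalization was added. Values per array are given for measured members at least 0.5 (log2) from the control at any time, and up to 4 genes with the largest differences of each of 6 lists are named, plus SLC3A1, SLC3A2, SLC7A11, ATF4 and MYC. SLC25A15 and SLC25A44 were added because they went the other way from the mitochondrial carriers so named. The members and lists were chosen with earlier results of these data known. The 7 alternatives changed the probe set rule, filter, floor or scaling. Promoter windows are RefSeq's. The counting was tested on simulated data, with Python 3.11.15, numpy 2.4.6 and pandas 2.3.3.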

Additional observations from a re-analysis of the deposited data

Results flagged for a closer look

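SLC7A5 stood above the control at 8 h and below it at both later times, each by more than the pooled SD between probe sets of the same gene (0.28 at 8 h, -0.33 at 16 h and -0.34 at 24 h, log2). The values come from 1 array per time, so the difference between the times was not tested. SLC38A10 came closest among the other members, with -0.46 at 8 h and 0.18 at 24 h, where the SD was also 0.18 and slightly the larger.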

How the results depend on the processing

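No paired analysis was possible because each group has 1 array. Without replicates none could be left out. No member reached 2-fold against the control under any of the 7 alternatives. The member medians kept their sign in 7 of 7 alternatives at 8 h (0.0024 to 0.085), 5 of 7 at 16 h (-0.046 to 0.093) and 4 of 7 at 24 h (-0.078 to 0.085), and the medians of the ATF4 targets in 7 of 7 at each time. Counts of members at least 1.5-fold away lie close to that limit and moved by 1 or 2. With probe sets of a gene combined by their median, 2 were higher at 16 h and 1 was lower from 8 h to 16 h. With no filter 1 was higher at 8 h and 1 lower from 16 h to 24 h. With the filter at the 75th percentile 0 were higher at 16 h, 1 at 24 h and 0 from 8 h to 16 h. With each array divided by its median, 1 was higher and 1 lower at 24 h, and with quantile normalization 2 were higher at 16 h. Without probe sets named _x_at or _s_at 8 members, SLC38A2, SLC7A5 and SLC7A7 among them, had no value; then 0 were higher at 16 h, 24 h or from 8 h to 16 h and 1 was lower in that step. The heavy chain list has 2 genes, and its median step from 8 h to 16 h depended on which had a value. It was -0.21, that of SLC3A2, with the median over probe sets and with the stricter filter. Without probe sets named _x_at or _s_at it was 0.30, that of SLC3A1, as the probe set of SLC3A2 is of that kind. There the GCN2 list had -0.16, and EIF2AK4 reversed to -0.17, the value of its other probe set. Apart from these and the members without a value, the cause was not tested.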
